A study of Mus musculus with 39 samples.

Results

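The canonical histones package nuclear DNA, and in the mouse most of them are made from clusters of small genes whose names give the protein: H2ac genes make histone H2A, H2bc genes H2B, H3c genes H3, H4c genes H4, and H1f genes the linker histone H1 that binds the DNA between nucleosomes. The genes reported here were chosen as a set with earlier results of these data known. Its members are all gene names of the count table that follow this naming, taken by symbol with no measured value used. They are 65 of 30012 names: 8 for H1, 16 for H2A, 17 for H2B, 12 for H3 and 12 for H4. Of these, 38 passed the filter on low counts and were tested among 14419 genes: 5 for H1, 15 for H2A, 14 for H2B, 2 for H3 and 2 for H4.

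The cells were fibroblasts from the lungs of wild-type C57BL/6 mice, obtained by removing cells that carry CD45, CD31, EpCAM, CD146 or Ter119 (markers of blood, endothelial, epithelial, mural and red cells) and growing the rest in dishes. After 24 h without serum they were given C1q, the recognition protein that starts the classical complement pathway, at 1, 10 or 100 µg/ml, and collected 2, 24, 48 or 72 h later. Untreated cells were collected at 0 h, so each of the 13 groups of dose and time has 3 libraries, 39 in all. No untreated cells of 2 to 72 h are among the libraries analysed here, so time in culture without serum and exposure to C1q cannot be told apart in any comparison with untreated cells; the comparison of 100 with 1 µg/ml at 1 time does not use the untreated cells. The age of the mice is not given in the sources used here. Nothing in the labels says that the 3 libraries of a group came from separate mice or cultures, so p-values here reflect only how far the libraries of a group differ, part or all of which may be technical.

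In dividing cells, replication-dependent histone messages rise as DNA synthesis begins and are destroyed when it ends. Most of them carry no poly(A) tail: they end just after a short stem loop that is bound by the stem-loop binding protein SLBP, and are cut by a complex with the U7 small nuclear RNA. Some of the same genes also give polyadenylated messages that run past the stem loop, and H1f0, the replacement linker histone of resting and differentiated cells, is polyadenylated and made outside S phase. These libraries were made from RNA caught on poly(T) beads and read from the 5′ end, so they count polyadenylated histone messages and any others the beads held. The share of each gene's messages that this leaves out was not measured.

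The stem loop is the sequence that sets these genes apart, and a match was searched in the GENCODE M21 transcripts (mouse build GRCm38) as a stem of 6 base pairs starting with GG and a loop of 4 bases. It was present in transcripts of 40 of the 63 histone genes with a match in that annotation, against 0.212% of all 141767 transcripts. The match was 1 of 6 forms, shown here with the loop in capitals, each with a gene that carries it. The first was found in 9 of 16 H2A genes, 7 of 16 H2B genes, 5 of 12 H3 genes and 3 of 7 H1 genes, H1f2 and H2ac23 among them.
H1f2: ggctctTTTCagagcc
H2bc12: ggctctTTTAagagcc
H2ac20: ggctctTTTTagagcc
H4c4: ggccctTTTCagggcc
H4c9: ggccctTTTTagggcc
H4c2: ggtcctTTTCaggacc
No match was found for 23 genes, among them H1f0 and H2bc4. Some annotated models hold the coding part and little else (393 bases for H2ac22, 381 for H2bc13), so a missing match there says only that the model stops before the place where a loop would lie.

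The H2A and H2B genes are often neighbours that start back to back, with the short gap between their start sites serving as promoter for both. There were 10 such pairs of measured genes with at most 500 bases between the starts, 9 on chromosome 13 and 1 on chromosome 3. The windows of 300 bases around the starts of H2ac6 and H2ac23 are shown because each spans the whole gap to its H2B neighbour, 240 bases to H2bc4 and 168 bases to H2bc23. Capitals mark 4 motifs on either strand: the TATA box, the CCAAT box, the octamer and a cell cycle homology element. Their letters, as searched, follow the windows.
H2ac6, chr13:23683910-23684209, minus strand: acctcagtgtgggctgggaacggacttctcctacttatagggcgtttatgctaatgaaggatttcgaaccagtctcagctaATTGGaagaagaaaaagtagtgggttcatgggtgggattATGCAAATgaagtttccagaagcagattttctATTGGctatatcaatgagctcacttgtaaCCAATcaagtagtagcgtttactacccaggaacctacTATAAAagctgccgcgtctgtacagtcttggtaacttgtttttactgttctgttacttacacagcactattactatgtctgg
H2ac23, chr13:21810117-21810416, plus strand: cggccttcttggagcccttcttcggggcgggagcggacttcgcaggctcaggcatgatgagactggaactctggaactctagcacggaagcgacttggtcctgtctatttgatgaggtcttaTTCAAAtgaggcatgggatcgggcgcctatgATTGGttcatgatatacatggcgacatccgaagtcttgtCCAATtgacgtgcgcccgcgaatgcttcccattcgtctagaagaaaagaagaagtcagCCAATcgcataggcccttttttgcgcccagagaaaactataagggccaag
Both windows come from RefSeq on build GRCm38.p6. CCAAT was found in the windows of 48 of 58 histone genes with a promoter in that table, including 16 of 16 H2A and 14 of 14 H2B genes, and in 37.92% of all 27025 promoters. The octamer ATTTGCAT, the site named for octamer-binding factors, was found in 11 of 58, in 5 H2A and 6 H2B genes, against 1.75% of all promoters. TATAAA was found in 33 of 58 against 14.16%, TTTGAA in 25 of 58 against 18.11%, and TTTCGCGC, a site named for E2F factors, in 9 of 58 against 0.32%. A match is a description of these letters and not of a bound factor.

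Depth was low for genes of this size. The libraries held 1806106 to 3012518 counts, of which 854 to 2305 fell on histone genes, 0.0463 to 0.0812% of the total. H1f0 alone held 19136 of the counts over all libraries. Of the fixed lists of cell markers, the 9 fibroblast markers summed to group means of 7870 to 11200 CPM (counts adjusted for library size, including a TMM factor for composition), and all 9 were tested. Markers of the depleted cells remained: the 14 myeloid markers, none of them at 0, summed to 283 to 308 CPM in the untreated libraries and 1000 to 1730 CPM at 72 h, and the 8 epithelial markers, none at 0, to 510 to 600 CPM and then 88.6 to 122 CPM. The 7 endothelial and 6 mural markers kept group means between 49.5 and 120 CPM, and the 4 erythroid markers in the table stayed below 3 CPM with none tested. The columns of the deposited table are spelled in a common and a less common way. The 9 columns of the less common spelling are replicate 3 of 1 µg/ml at 24 h, all libraries of 10 and 100 µg/ml at 24 h, and replicates 1 and 2 of 1 µg/ml at 48 h, and what the spelling stands for is not given in the sources used here. Since bulk libraries were read, fewer cells of a type and less RNA per cell cannot be told apart.

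Several histone genes are close to being copies. H2ac18 and H2ac19, H2ac23 and H2ac24, and H3c14 and H3c15 have coding sequences that are 100% identical, and H2ac10 is 98.5% identical to H2ac23. Windows of 50 bases over the first 150 bases of the transcripts were compared with all other genes, because the reads come from the 5′ end. All of the 38 tested genes but H2bc24, which had no match in the annotation, could be compared. Of these, 9 had no shared window: H1f0, H1f2, H1f3, H1f4, H1f10, H2ac4, H2ac8, H2bc1 and H2bc21. Where a model holds only the coding part, as for H2bc1, the windows start at the coding sequence and not at the 5′ end of the message. How reads that fit several genes were counted is not given in the sources used here, so the values of H2ac23 and H2ac24, or of H3c14 and H3c15, are not separate measurements.

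The summed level of all 65 genes was 731 ± 23.9 CPM (SD, n = 3) in untreated cells. At 2 h it was 604 ± 34.02, 489 ± 12.1 and 581 ± 38.4 CPM at 1, 10 and 100 µg/ml. At 24 h it was 747 ± 78.1 and 724 ± 5.64 CPM at 1 and 10 µg/ml and 478 ± 18.9 CPM at 100 µg/ml, whose libraries lay below all those of the other doses. The same order held at 48 h (627 ± 44.5, 605 ± 8.66 and 457 ± 10.5 CPM) and at 72 h (809 ± 35.0, 780 ± 35.0 and 547 ± 13.1 CPM). H1f0 is the largest part of the sum, with 31.7% of the histone gene counts over all libraries, and the subfamilies did not move together. H2A summed to 236, 255 and 287 CPM in the untreated libraries and to a lowest, median and highest of 62.7, 88.9 and 124 CPM in the 9 libraries at 72 h. H2B went the other way, from 104, 113 and 136 CPM to 145, 241 and 261 CPM. These sums were not tested.

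**Figure D1:**
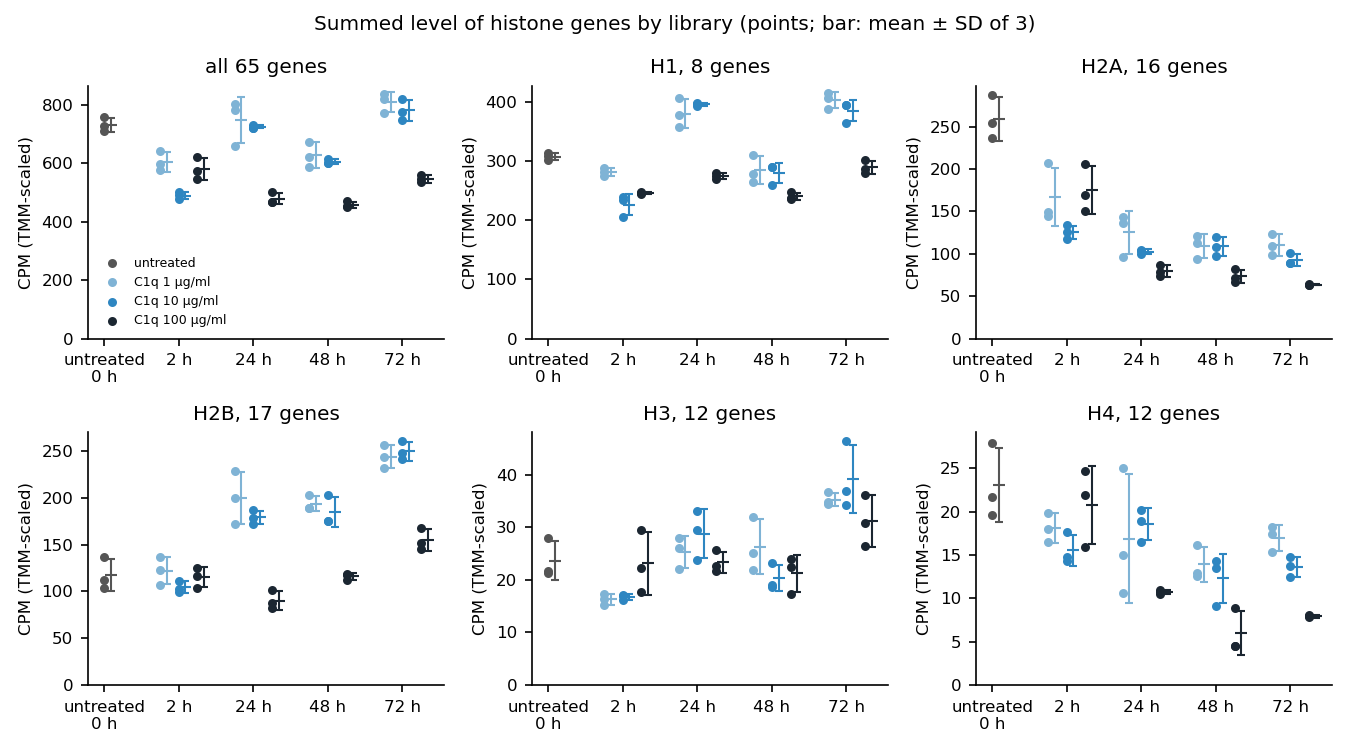
Summed level (CPM, TMM-scaled) of all 65 histone genes and of each subfamily, for each of the 39 libraries by time and C1q dose (points), with the mean ± SD of 3 libraries. H2A lies lower at 72 h than in untreated cells while H2B lies higher, and the 100 µg/ml libraries lie lowest from 24 h on in the panels of all genes, H1, H2A and H2B.

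In each comparison with untreated cells the mean of the 3 doses was set against the 3 untreated libraries in 1 edgeR quasi-likelihood fit, with Benjamini-Hochberg adjustment over all 14419 genes and an adjusted p under 0.05 as the threshold. These comparisons share their untreated libraries. At 2 h, 6 of 38 histone genes fell, against 4.48% of all genes tested. None rose, against 6.21% of all genes, and edgeR at an unadjusted p under 0.05 and DESeq2 also called 0 higher. At 24 h, 4 rose and 14 fell, against 16.3% and 20.5% of all genes. At 48 h, 5 rose and 15 fell, against 20.9% and 22.5%. At 72 h, 12 rose and 15 fell, against 23.6% and 25.3%. The share that fell was above that of all genes at each time, and the share that rose was above it at 72 h and below it at 2, 24 and 48 h; no difference in shares was tested. With columns of the common spelling only, which leaves 2 libraries of 1 µg/ml and none of 10 or 100 µg/ml at 24 h, 9 of 40 genes rose and 9 fell at 24 h, against 6.94% and 10.5% of the 15004 genes tested in that fit, so that there the share that rose was above that of all genes as well. Without untreated replicate 2, or without replicate 3, the number that rose at 48 h was 3. The 14 genes that fell at 24 h also fell at 48 and 72 h. The count over genes carries fewer separate measurements than its number, because the H2A genes share sequence.

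H2A genes made up most of the fall. At 72 h, 12 of 15 tested H2A genes fell and none rose, against 25.3% and 23.6% of all genes tested. Their median log2 difference was -2.17, against 0.03 for all genes tested. H2ac23 was at 37.3, 56.3 and 40.4 CPM in the untreated libraries. Its lowest, median and highest libraries were 15.4, 21.3 and 34 CPM at 2 h, 4.18, 6.82 and 18.3 CPM at 24 h, 5.26, 7.97 and 14.1 CPM at 48 h, and 4.53, 7.46 and 8.95 CPM at 72 h. Every C1q library lay below every untreated library at each time, and with all columns most of the loss was present by 24 h. The 24 h libraries of the common spelling, replicates 1 and 2 of 1 µg/ml, were at 15.4 and 18.3 CPM. The step at which this gene fell thus depends on the columns used, as described further on. The log2 difference from untreated cells was -1.02 ± 0.18 (SE) at 2 h and -2.71 ± 0.21 at 72 h (edgeR adjusted p = 4.05e-15).

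Its identical copy H2ac24 was at 36.1, 46.8 and 42.1 CPM in untreated cells and at 3.51, 6.12 and 11.5 CPM (lowest, median, highest) at 72 h. H2ac11 had the largest difference of the 38 tested genes at 72 h, from 31.7, 34.9 and 40 CPM (lowest to highest of 3) to 2.33, 4.53 and 6.48 CPM, a log2 difference of -3.06 ± 0.25. Neither gene's untreated and 72 h libraries overlap. H2ac4 and H2ac8 have no 5′ window in common with another gene, and they fell too. H2ac4 was at 6.81, 7.66 and 10.5 CPM in untreated cells and 0.360, 1.51 and 4.26 CPM at 72 h, a log2 difference of -2.45 ± 0.34. H2ac8 was at 5.61, 7.89 and 9.37 CPM and then 0.932, 2.49 and 3.41 CPM, a difference of -1.69 ± 0.35. These genes rest on few reads, 1 to 10 counts in each 72 h library for H2ac4 and 2 to 8 for H2ac8.

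The other H2A genes that fell at 72 h were H2ac6, H2ac7, H2ac10, H2ac12, H2ac13, H2ac15 and H2ac22, with log2 differences from -0.92 (H2ac10) to -2.47 (H2ac22). H2ac10, at 16.3 to 18.4 CPM in untreated cells and 5.13 to 16.2 CPM at 72 h, changed least of them. H2ac15 passed the filter only through untreated and 2 h libraries, so its fall supports nothing further. The 3 H2A genes that did not pass the test at 72 h, H2ac18, H2ac19 and H2ac20, are those tested on chromosome 3, outside the large cluster. H2ac18 was at 14.0, 17.4 and 13.6 CPM in untreated cells and 11.6, 17.1 and 25.5 CPM (lowest, median, highest) at 72 h, with a log2 difference of 0.21 ± 0.16. Its copy H2ac19 gave 13.6, 15.8 and 14.0 CPM and then 11.7, 21.2 and 26.0 CPM, a difference of 0.37 ± 0.17. In both the 72 h libraries spread to either side of the untreated ones, and the spread follows the dose, as described further on.

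Both tested H4 genes fell at 72 h, against 25.3% of all genes tested. H4c9 was at 3.83, 6.01 and 8.95 CPM (lowest to highest) in untreated cells and at 0.779, 2.88 and 5.67 CPM at 72 h, so that the groups overlap. Its log2 difference was -1.41 ± 0.35 (edgeR adjusted p = 7.27e-04). H4c4 went from 4.01, 5.11 and 5.26 CPM to 0, 1.07 and 2.71 CPM without overlap, a difference of -1.95 ± 0.39. It passed the filter only through untreated and 2 h libraries, so its fall supports nothing further.

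H2B genes, the partners of H2A in the nucleosome, did not fall in any comparison with untreated cells, against 4.48 to 25.3% of all genes tested. At 72 h, 8 of 14 tested H2B genes rose, against 23.6% of all genes tested, and their median log2 difference was 0.66. H2bc4, the H2B gene with the most counts, was at 41.7, 41.6 and 36.6 CPM in untreated cells. Over the 9 libraries of each time its lowest, median and highest were 34.6, 42.5 and 48.9 CPM at 2 h, 27.5, 68.6 and 93.1 CPM at 24 h, 36.9, 73.2 and 86.0 CPM at 48 h, and 58.7, 89.3 and 117 CPM at 72 h. At 72 h all 9 libraries were above the untreated ones, with a log2 difference of 1.14 ± 0.12 (edgeR adjusted p = 1.34e-11). At 24 h the libraries of 100 µg/ml were the only ones below them.

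H2bc22, H2bc24, H2bc8, H2bc23, H2bc13 and H2bc1 also rose at 72 h, with log2 differences of 0.70 to 1.56. H2bc13 was at 0.852 to 2.63 CPM in the untreated libraries, below the filter level of 4.01 CPM. It passed the filter only through C1q libraries, so its rise over untreated cells supports nothing further. H2bc22 went from 4.21, 6.81 and 9.62 CPM to 9.63, 14.7 and 21.7 CPM, and its groups meet without overlapping. H2bc1, which shares no 5′ window, was near the lower limit of the table, at 1 to 3 counts in the untreated libraries, and its call at 72 h was lost under DESeq2 and without any 1 of the untreated libraries. It passed the filter only through 1 µg/ml at 24 h, so its rise over untreated cells supports nothing further. H2bc6 was at 22.8, 15.8 and 15.8 CPM in untreated cells and 10.9, 30.9 and 35.6 CPM (lowest, median, highest) at 72 h. Its difference of 0.43 ± 0.18 (edgeR adjusted p = 0.0437) kept the threshold in 5 of 12 fits that left out 1 library, and its 5′ windows are all shared with H1f4, a neighbouring gene on the same strand, and the gene model Gm11398.

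**Figure D2:**
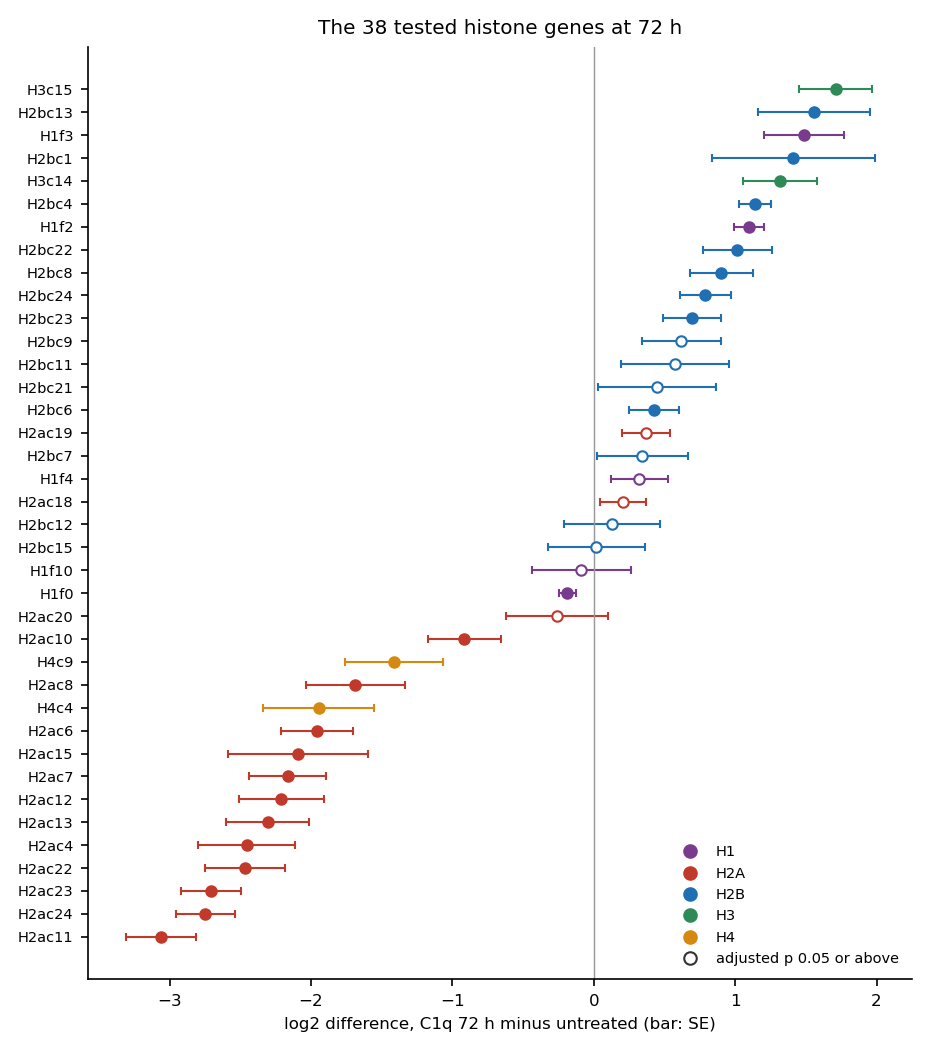
Log2 difference of the 38 tested histone genes between C1q at 72 h (mean of 3 doses) and untreated cells, with its SE, ordered by size and coloured by subfamily; open points did not reach an adjusted p under 0.05. The H2A genes H2ac11, H2ac24 and H2ac23 lie lowest, and H2B, H3 and H1 genes make up the points above 0.5.

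Linker histone genes split. H1f0 changed little, with 232, 229 and 231 CPM in the untreated libraries and 185, 207 and 218 CPM (lowest, median, highest) at 72 h. Its small spread made the log2 difference of -0.19 ± 0.06 pass the test (edgeR adjusted p = 0.00977), and 2 h and 48 h gave -0.40 ± 0.06 and -0.42 ± 0.06. At 24 h the difference was 0.03 ± 0.06, so its level did not follow 1 direction over time. H1f2, a main linker histone of dividing cells, was at 49.3, 44.2 and 52.4 CPM in untreated cells. Its lowest, median and highest libraries were 35.2, 48.0 and 64.5 CPM at 2 h, 42.2, 92.1 and 105 CPM at 24 h, 40.4, 72.8 and 92.2 CPM at 48 h, and 60.3, 128 and 142 CPM at 72 h. All 9 libraries at 72 h were above the untreated ones, and the log2 difference was 1.10 ± 0.11 (edgeR adjusted p = 3.35e-12). The rise at 48 h (0.38 ± 0.11) missed the threshold without untreated replicate 2.

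H1f3 rose at 72 h from 10.4, 7.89 and 5.11 CPM to 10.3, 23.8 and 31.5 CPM (lowest, median, highest), a log2 difference of 1.49 ± 0.29. Only its lowest 72 h library lay within the untreated range. H1f4 was at 12.8, 15.8 and 14.0 CPM and then at 8.11, 18.8 and 28.6 CPM, and did not pass the test (0.32 ± 0.20). H1f10, a replacement linker histone with few reads, gave -0.09 ± 0.35. The 2 tested H3 genes, copies of each other, rose at 72 h, against 23.6% of all genes tested. H3c15 went from 2.81, 3.83 and 6.84 CPM to 10.5, 14.5 and 17.4 CPM without overlap (log2 difference 1.71 ± 0.26), and H3c14 from 4.68, 6.31 and 6.81 CPM to 6.08, 14.9 and 21.9 CPM (1.32 ± 0.26), with its lowest 72 h library inside the untreated range.

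The 27 genes below the filter added little. They comprise 10 H3 genes, 10 H4 genes, 3 H1 genes, 3 H2B genes and 1 H2A gene. The highest count of any of them in a library was 12, for H2bc3. A gene that passed the filter through the group in which it was highest had to differ from the rest, so the counts above describe the tested genes and not all 65. H2ac15 and H4c4 passed through untreated and 2 h libraries only, and their fall from there supports nothing further. H2bc13 passed through C1q libraries only, and H2bc1 through 1 µg/ml at 24 h only. Their rise over untreated cells likewise supports nothing further.

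Between neighbouring times, the mean of the 3 doses at the later time was set against that at the earlier one. From 2 to 24 h, 15 histone genes rose and 13 fell, against 29.3% and 28.6% of all genes tested. The 13 that fell were 11 H2A genes and both H4 genes. Of these, H2ac15 and H4c4 passed the filter only through untreated and 2 h libraries, so their fall supports nothing further. H2ac23 changed by -1.30 ± 0.17, H2ac24 by -1.44 ± 0.18 and H2ac11 by -1.44 ± 0.20 on the log2 scale. The 15 that rose included 4 of 5 H1 genes, 6 H2B genes, both H3 genes and H2ac18, H2ac19 and H2ac20. H2bc1, 1 of these H2B genes, passed the filter only through 1 µg/ml at 24 h, so its rise supports nothing. Among the 15, H3c15 rose by 1.41 ± 0.20 and H1f2 by 0.65 ± 0.07. The fit of the common spelling holds only 1 µg/ml at 24 h, so spelling and dose cannot be told apart in it. With columns of the common spelling only, 1 gene fell in place of 13, H2ac24, against 17.6% of all genes tested in that fit, and 16 rose, against 15.8%.

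From 24 to 48 h, 1 gene rose and 2 fell, against 12.8% and 12.1% of all genes tested. With columns of the common spelling only, 11 of 40 fell, against 9.82%, so that the share that fell went from below to above that of all genes. Those 11 include H2ac11, H2ac12, H2ac23, H2ac24 and H2ac8, and the step at which these genes fell thus differs between the fits. The fit of the common spelling holds only 1 µg/ml at 24 h but all doses at 48 h, so spelling and dose cannot be told apart in it. With all columns the 2 that fell were H1f0 (-0.44 ± 0.04) and H1f2 (-0.26 ± 0.07). The 1 that rose was H2bc4, whose difference of 0.22 ± 0.08 turned to -0.48 with columns of the common spelling only. That call also held in only 9 of 18 fits that left out 1 library. From 48 to 72 h, 9 genes rose, against 8.38% of all genes tested. They were H1f0, H1f2, H1f3, H1f4, H2bc4, H2bc23, H2bc24, H3c14 and H3c15, with differences from 0.23 ± 0.04 for H1f0 to 0.82 ± 0.18 for H1f3. None fell, against 8.27% of all genes; at an unadjusted p under 0.05 edgeR gave 3, and DESeq2 gave 0. Without replicate 1 of 100 µg/ml at 48 h, or replicate 3 of 10 µg/ml at 72 h, 1 gene fell. The median of the 15 H2A genes over that step was -0.21.

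The back-to-back pairs put the contrast between H2A and H2B on shared promoters. In 9 of 10 pairs the H2A partner fell at 72 h, and no H2B partner fell. The H2B partner rose in 5 of those 9 pairs and did not pass the test in 4. Of all genes tested, 25.3% fell and 23.6% rose. The paired genes are among those already counted above, so the pairs are not a separate result. H2ac15, 1 of the 9 H2A partners, passed the filter only through untreated and 2 h libraries, so its fall supports nothing further. H2bc13, 1 of the H2B partners that rose, passed the filter only through C1q libraries, so its rise supports nothing further. H2ac6 was at 14.0, 14.4 and 16.3 CPM in untreated cells and 1.17, 4.55 and 6.82 CPM at 72 h (log2 difference -1.96 ± 0.25), while H2bc4, whose start is 240 bases away across the first promoter window shown above, rose by 1.14 ± 0.12. H2ac23 and H2bc23, 168 bases apart across the second window, gave -2.71 ± 0.21 and 0.70 ± 0.20.

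The ratio of H2A to H2B counts (log2, with 0.5 added to each count) was below all 3 untreated libraries in all 9 C1q libraries at 72 h for the same 9 pairs, and at 24 h and 48 h in 9 pairs each. At 2 h that was so for 2 pairs, H2ac11 with H2bc11 and H2ac13 with H2bc13. For H2ac6 and H2bc4 the ratio was -1.52, -1.37 and -1.34 in untreated cells and -5.72, -4.41 and -3.59 (lowest, median, highest) at 72 h. For H2ac23 and H2bc23 it moved from 1.62, 2.45 and 2.99 to -1.62, -1.17 and -0.38. The exception was the pair on chromosome 3, H2ac20 and H2bc21, which overlapped at every time. These ratios were not tested, and several pairs share sequence with each other. They rest on the same counts as the calls above, and how often other gene pairs lie apart in this way was not determined. The pairs of H2ac15 and of H2bc13 carry the limit of the filter given above.

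**Figure D3:**
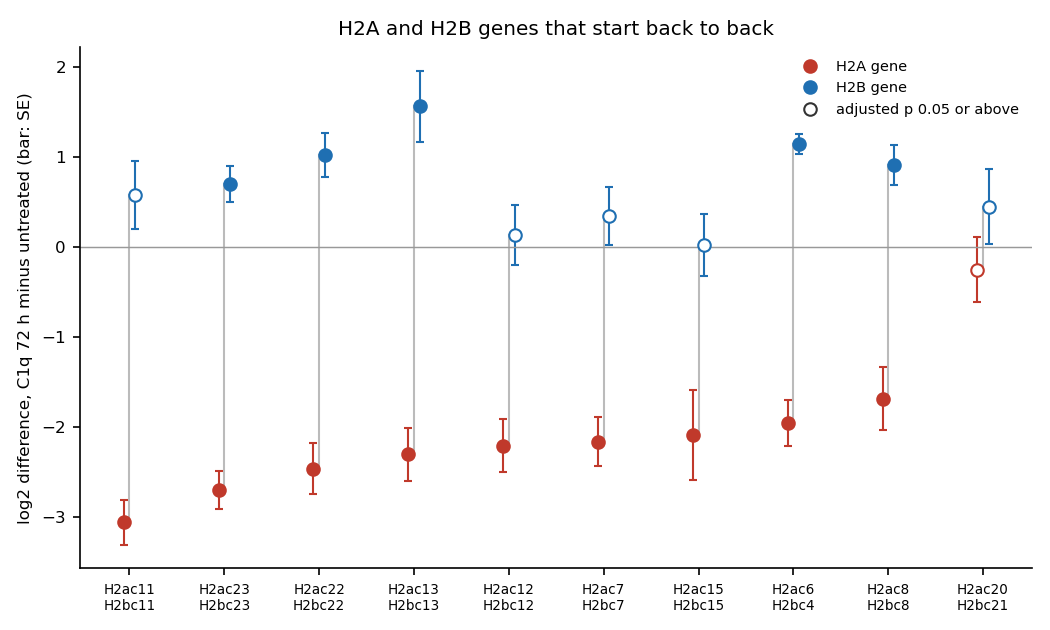
Log2 difference (C1q 72 h minus untreated, with SE) of the H2A and the H2B gene in each of the 10 pairs that start within 500 bases of each other; filled points reached an adjusted p under 0.05. In 9 pairs the H2A gene lies below -1.6 and the H2B gene at or above 0.02, and in the pair on chromosome 3 neither gene reached the threshold.

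The annotated ends of the transcripts were set beside these calls as a description. Of all genes tested, 23.6% rose and 25.3% fell at 72 h. Of 12 tested genes with an annotated transcript that runs over 100 bases past a stem loop, 6 rose and 4 fell at 72 h. Of 12 whose annotated transcripts with a loop end within 100 bases of it, 1 rose and 5 fell. Of 8 whose model holds only the coding part, 2 rose and 5 fell, and of 5 longer models without a match, 2 rose and 1 fell. These counts include genes limited by the filter, as given above. H4c4 is among those that fell with a long end past the loop. Among the models of only the coding part, H2ac15 fell, and H2bc1 and H2bc13 rose. Long annotated ends occur in both directions. H1f2 (840 bases past the loop) and H3c14 (1167 bases) rose, and H2ac6 (2010 bases) and H4c9 (330 bases) fell. Where the messages counted here ended was not measured.

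Dose was examined as 100 against 1 µg/ml at each time, a test that gives the same p as a slope over the evenly spaced log doses. From 24 h on, more histone genes were lower at 100 µg/ml than the share of all genes tested, and none was higher. At 2 h, 1 of 38 fell, against 1.94% of all genes, and at 24 h 15 fell, against 7.21%. At 48 h 6 fell, against 6.44%, and at 72 h 10 fell, against 6.51%. The shares of all genes tested that rose were 1.28%, 3.77%, 3.82% and 4.99%, and edgeR and DESeq2 each called 0 histone genes higher at any time; at an unadjusted p under 0.05 edgeR gave 4, 0, 1 and 1. The median log2 difference of the 38 genes was -0.03, -0.83, -0.58 and -0.73 at 2, 24, 48 and 72 h, beside -0.02, 0.03, -0.01 and 0.00 for all genes tested. The sign was negative for 21, 34, 36 and 34 of the 38 genes. Over the 4 times 19 genes were lower at least once, 7 at both 24 and 72 h, and 3 at 24, 48 and 72 h: H1f2, H2bc4 and H2ac18. The 19 include H2bc1 and H2bc11, and the 7 include H2bc11. The filter limits both genes, as described further on.

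The size of the count depends on some libraries. At 24 h it was 8 without replicate 2 of 1 µg/ml and 20 without replicate 3, and at 48 h it was 3 without replicate 1 of 1 µg/ml. With the 24 h libraries restricted to the less common spelling, a choice made after seeing the data that leaves 1 library of 1 µg/ml, assumed to vary like the other groups, 3 genes were lower at 24 h: H1f2 (-0.85), H2bc4 (-1.21) and H2bc6 (-1.17), against 1.35% of all genes tested in that fit. Of the 12 calls lost there, 7 kept differences of -0.71 or larger in size: H2bc1 (-2.23), H2bc11 (-1.74), H2bc23 (-1.24), H2bc8 (-1.02), H1f4 (-0.78), H2bc24 (-0.72) and H2ac18 (-0.71). H1f3 (-0.51), H2ac4 (-0.50), H2bc22 (-0.48) and H1f0 (-0.22) were smaller. Among the counts of 0, 1 gene was higher at 2 h without replicate 3 of 1 µg/ml, and 1 at 48 h without replicate 3 of 1 or of 100 µg/ml. At 72 h all libraries share the common spelling, and leaving out any 1 library of that comparison gave 7 to 9 genes. H2ac23, called lower at 24 h (-1.08 ± 0.33), rested on replicates 1 and 2 of 1 µg/ml, at 15.4 and 18.3 CPM, while replicate 3 was at 5.08 CPM and the 100 µg/ml libraries at 8.31, 6.58 and 4.18 CPM. Under the restriction its difference turned to 0.30.

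H1f2 was lower at 100 than at 1 µg/ml at all 4 times. At 2 h its libraries were at 63.5, 61.6 and 64.5 CPM at 1 µg/ml, 48.0, 38 and 57.8 CPM at 10 µg/ml, and 40.5, 35.2 and 37.2 CPM at 100 µg/ml. At 24 h they were at 92.1, 102 and 84.7, then 100, 94.7 and 105, then 52.3, 47.2 and 42.2 CPM. At 48 h they were at 77.6, 81.6 and 72.8, then 60.1, 92.2 and 88.0, then 43.1, 41.3 and 40.4 CPM. At 72 h they were at 134, 142 and 128, then 119, 135 and 131, then 60.3, 68.2 and 70.4 CPM. The libraries of 1 and 100 µg/ml never overlapped, and those of 10 µg/ml were near the lower dose from 24 h on. The log2 differences were -0.75 ± 0.13, -0.99 ± 0.12, -0.90 ± 0.13 and -1.02 ± 0.12, with edgeR adjusted p of 2.58e-04, 8.43e-08, 3.41e-06 and 1.05e-08. At 100 µg/ml H1f2 thus stood at 35.2 to 52.3 CPM until 48 h, beside 44.2 to 52.4 CPM in untreated cells, while every library of 1 and 10 µg/ml was above the untreated ones from 24 h on.

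**Figure D4:**
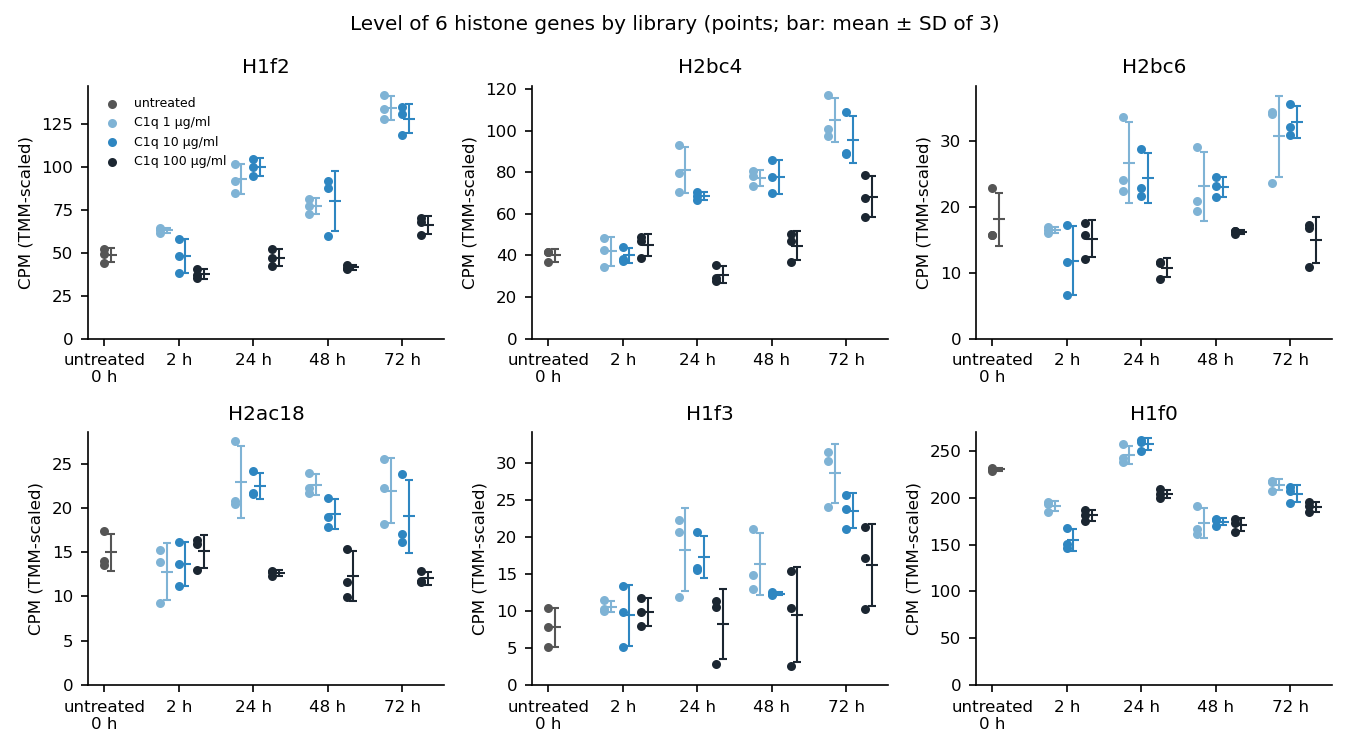
Level (CPM, TMM-scaled) of H1f2, H2bc4, H2bc6, H2ac18, H1f3 and H1f0 in each of the 39 libraries by time and C1q dose (points), with the mean ± SD of 3 libraries. From 24 h on the H1f2, H2bc4 and H2ac18 libraries of 100 µg/ml lie below those of 1 µg/ml at each time, and H1f0 differs less between doses.

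H2bc4 showed no such difference at 2 h, where it was at 48.6, 42.5 and 34.6 CPM at 1 µg/ml and 48.9, 38.9 and 47.1 CPM at 100 µg/ml. At 24 h it was at 93.1, 79.5 and 70.7 CPM at 1 µg/ml, 70.7, 66.6 and 68.6 CPM at 10 µg/ml and 35.2, 29.2 and 27.5 CPM at 100 µg/ml, a log2 difference of -1.41 ± 0.14 (edgeR adjusted p = 1.44e-10). At 72 h the values were 117, 97.5 and 101, then 89.3, 88.9 and 109, then 78.6, 67.4 and 58.7 CPM, a difference of -0.63 ± 0.12. The difference was thus largest at 24 h and fell off later as the 100 µg/ml libraries rose. A test of whether the dose difference varied between the 4 times called 4 histone genes, H2bc4, H2ac18, H2bc6 and H2bc23, against 6.78% of all genes tested. This count was 2 without replicate 1 or 3 of 1 µg/ml at 2 h, replicate 1 or 3 of 100 µg/ml at 2 h, replicate 1 of 1 µg/ml at 24 h or replicate 3 of 100 µg/ml at 24 h.

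H2ac18 was level at 2 h (9.22, 13.9 and 15.3 CPM at 1 µg/ml and 15.9, 13 and 16.4 CPM at 100 µg/ml). At 24 h it was at 27.6, 20.4 and 20.8 CPM at 1 µg/ml, 24.2, 21.6 and 21.7 CPM at 10 µg/ml and 12.3, 12.8 and 12.9 CPM at 100 µg/ml. At 72 h it was at 22.2, 25.5 and 18.2, then 16.2, 17.1 and 23.8, then 11.7, 12.9 and 11.6 CPM. The 100 µg/ml libraries were below the untreated range at both times, and the log2 differences between 100 and 1 µg/ml were -0.86 ± 0.18 and -0.86 ± 0.20. Its copy H2ac19 was called lower at 72 h only, at 26.0, 20.9 and 22.7 CPM against 11.7, 14.0 and 13 CPM.

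H2bc6 was at 33.7, 22.4 and 24.1 CPM at 1 µg/ml and 11.5, 11.7 and 9.06 CPM at 100 µg/ml at 24 h (log2 difference -1.32 ± 0.22), and at 34.1, 34.4 and 23.6 against 17.2, 10.9 and 16.8 CPM at 72 h (-1.06 ± 0.21). H1f3 was at 22.2, 20.7 and 11.9 against 2.77, 11.3 and 10.5 CPM at 24 h, and at 31.5, 24.0 and 30.2 against 21.3, 17.1 and 10.3 CPM at 72 h. Its calls at both times were lost when 1 of several libraries was left out. H1f4 was at 14.0, 19.7 and 15.7 against 9.50, 7.68 and 10.1 CPM at 24 h, and at 18.8, 28.6 and 18.6 against 8.11, 14.0 and 9.79 CPM at 72 h (-1.02 ± 0.25). H1f0 differed least among the called genes, at 243, 257 and 238 against 209, 200 and 204 CPM at 24 h (-0.27 ± 0.07), and was not called at the other times.

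The remaining H2B genes lower at 24 h were H2bc1, H2bc8, H2bc11, H2bc22, H2bc23 and H2bc24. H2bc23 was at 14.3, 13.9 and 11.4 CPM at 1 µg/ml and 5.15, 6.21 and 3.14 CPM at 100 µg/ml, a log2 difference of -1.46 ± 0.26. H2bc8 was at 14.0, 12.9 and 12.3 against 7.92, 5.48 and 4.88 CPM (-1.11 ± 0.25). H2bc22 was at 16.1, 16.3 and 9.32 against 8.71, 4.75 and 6.62 CPM (-1.08 ± 0.27). In these 3 genes the libraries of 1 and 100 µg/ml did not overlap. H2bc24 was at 10.0, 11.2 and 9.32 against 5.15, 5.48 and 6.27 CPM at 24 h and was lower at 48 h as well (-1.02 ± 0.24). H2bc1 was at 4.66, 4.08 and 4.24 against 0.792, 0 and 1.74 CPM, and H2bc11 at 1.79, 4.41 and 3.81 against 1.58, 0.366 and 1.39 CPM, so both rest on a few counts a library. H2bc1 passed the filter through the 3 libraries of 1 µg/ml at 24 h alone, the group in which it is high here, so its difference follows from the filter and supports nothing; 14 called genes remain without it. H2bc11 kept its call in 2 of 6 fits that left out a library. No library of 100 µg/ml reached its filter level of 4.01 CPM, the highest being 3.15 CPM at 48 h. Its differences at 24 and 72 h thus follow in part from the filter and support nothing further. H2bc8 and H2bc12 were lower at 48 h and H2bc11 at 72 h; these 3 calls were lost under DESeq2, and held in 1, 2 and 3 of 6 fits that left out a library.

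Few H2A and H4 genes of the chromosome 13 cluster were called between doses. At 24 h these were H2ac23, described above, and H2ac4, at 3.94, 6.11 and 2.12 against 2.38, 1.10 and 1.05 CPM, whose groups overlap and whose call held in 2 of 6 fits that left out a library. At 72 h they were H2ac7, at 7.25, 4.64 and 4.14 against 1.01, 1.56 and 1.40 CPM, and H4c9, at 2.13, 4.64 and 2.89 against 1.01, 0.779 and 0.932 CPM, whose call was lost under DESeq2 and held in 1 of 6 fits that left out a library. Over all 15 tested H2A genes, chromosome 3 included, the median log2 difference was -0.81, -0.60 and -0.83 at 24, 48 and 72 h. For the 14 H2B genes it was -0.965, -0.65 and -0.64. Several H2A genes rest on few reads, so a missing call does not show that a gene is equal at both doses. H3c14 and H3c15 were not called at any time. Their log2 differences between 100 and 1 µg/ml were 1.00 ± 0.43 and 1.29 ± 0.43 at 2 h, with adjusted p of 0.252 and 0.0973, 0.04 ± 0.30 and 0.22 ± 0.27 at 24 h, -0.19 and -0.15 at 48 h, and -0.01 and 0.19 at 72 h. The 2 h values have the opposite sign to the differences called in other histone genes, and none of these values shows that the genes are equal at both doses.

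Genes that act with the histones in S phase were taken from fixed lists, chosen with earlier results of these data known. Of 30 DNA replication genes, 29 fell at 72 h against untreated cells, with a median log2 difference of -1.80. Of all genes tested, 25.3% fell at that time. Those of highest level were Pcna, the sliding clamp of the replication fork (-1.46 ± 0.08), Rrm1, a subunit of ribonucleotide reductase (-1.94 ± 0.09), and Tyms, thymidylate synthase (-1.45 ± 0.10). All 18 mitosis genes fell, with a median of -2.88, among them Top2a (-2.94 ± 0.09) and Mki67 (-2.72 ± 0.10). The same counts, 29 of 30 and 18 of 18, were found at 24 and 48 h, where 20.5% and 22.5% of all genes tested fell. The fall of H2A genes and H4c9 thus took place in the same libraries in which these lists fell. So did the rise of H2B, H1f2, H1f3 and H3 genes. The myeloid markers rose and the epithelial markers fell over the same times, by the values given above, and their part in the histone results was not tested.

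At 72 h, 25.3% of all genes tested fell and 23.6% rose. Of 23 tested genes that process histone messages or drive their transcription, 12 fell at 72 h and 1 rose. Slbp, whose product binds the stem loops shown above, fell by 1.10 ± 0.10 on the log2 scale, Cpsf2, a subunit of the cleavage complex, by 0.80 ± 0.10, and Eri1, an exonuclease that trims histone messages, by 0.70 ± 0.11. Of 24 histone chaperone and assembly genes, 15 fell and 1 rose, with Nap1l1, a chaperone of H2A and H2B, at -0.73 ± 0.07. Of 10 tested replacement variants, which are not part of the set, 8 fell and none rose at 72 h, where edgeR tested them with the rest. H2az1, which encodes the variant H2A.Z, changed by -1.65 ± 0.08, and H3f3b, which encodes H3.3, by -0.26 ± 0.08.

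Between doses the medians of these lists lay nearer 0 at 24 h than that of the histone genes. Of 30 DNA replication genes 0, 2, 7 and 3 were lower at 100 than at 1 µg/ml at 2, 24, 48 and 72 h, with medians of -0.08, -0.03, -0.48 and -0.24. Of 18 mitosis genes the counts were 0, 1, 10 and 2, with medians of -0.09, -0.22, -0.77 and -0.37. At 24 h the processing and chaperone lists had 0 genes lower of 23 and 24, with medians of -0.002 and -0.01, beside the median of -0.83 for the histone genes. The replacement variants were lower at 100 µg/ml in 1, 3, 4 and 3 of 10 genes at 2, 24, 48 and 72 h and higher in 1 at 72 h, with medians of -0.02, -0.28, -0.33 and -0.29, so that this list, like the histone genes, had more genes lower from 24 h on than the 7.21%, 6.44% and 6.51% of all genes. H2az1 was among them at 24, 48 and 72 h (-0.52, -0.49 and -0.44). The dose difference varied with time for 5 of the 10. Slbp was called lower at 48 h only (-0.42 ± 0.13). The difference between the lists was not tested. Fibroblast markers at 24 h summed to 10300 ± 1150, 10100 ± 300 and 7870 ± 400 CPM at 1, 10 and 100 µg/ml, and myeloid markers at 72 h to 1380 ± 51.9, 1580 ± 127 and 1120 ± 112 CPM, so that marker sums also differed between doses, and their part in the dose result was not tested.

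**Figure D5:**
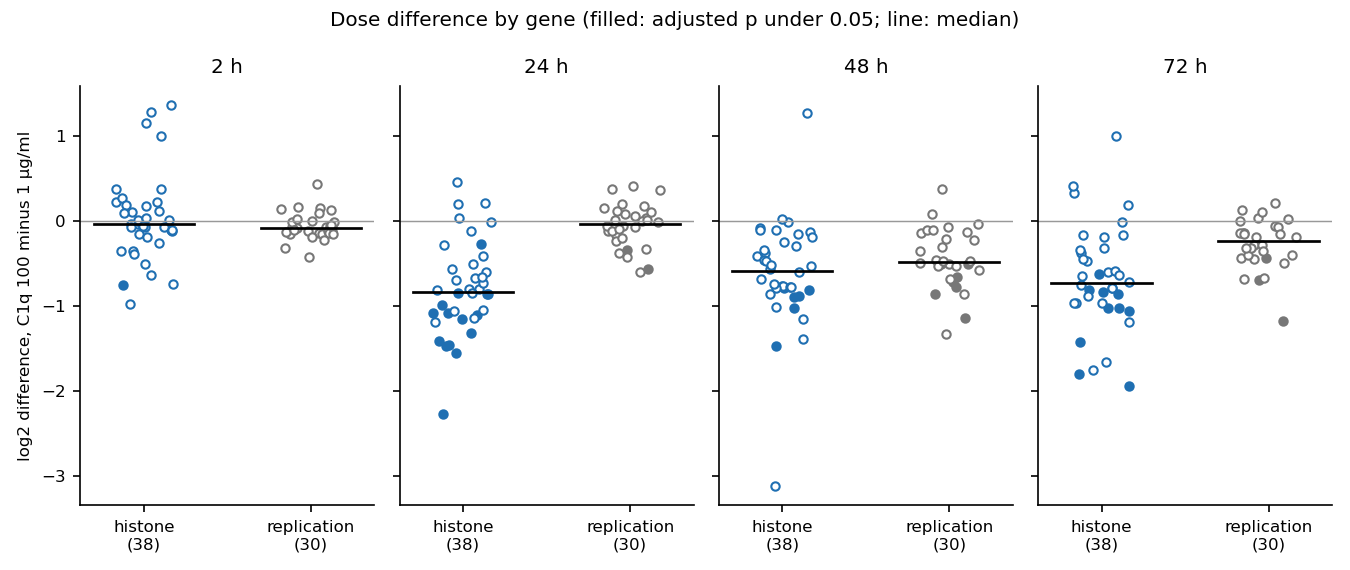
Log2 difference between C1q at 100 and 1 µg/ml at each time for the 38 tested histone genes and the 30 DNA replication genes (1 point a gene, spread sideways at random); filled points reached an adjusted p under 0.05 and the line is the median. At 24 h the median of the histone genes lies at -0.83 and that of the replication genes at -0.03, and at 48 h they lie at -0.58 and -0.48.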

How the data were processed

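The deposited table holds whole-number counts per gene name for 39 libraries. Per the submitters' processing notes the authors used cutadapt 2.1.0, Bowtie2 2.4.2 and build GRCm38; no source used here states the roles of these tools or the treatment of reads that fit several genes. Genes passing edgeR's filterByExpr (minimum count 10) were fitted with edgeR 4.0.16 (R 4.3.3; quasi-likelihood, TMM scaling, 1 mean for each of 13 groups); the tests were checked on simulated counts. The SE of a log2 difference is its size divided by the square root of F. CPM are not divided by length, because reads mark 5′ ends. No 2 libraries of a group were identical or within sampling noise (chi-square per degree of freedom 1.31 to 8.48).

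Every histone gene may be named; levels by library are given for the 10 tested genes of highest mean and for those called between doses, and by time or range for the rest; other genes come only from the lists, up to 3 a list, those of highest mean among the called. The members and lists were chosen with earlier results of these data known. Alternatives were RLE scaling, no filter, DESeq2 1.42.0, only the compared libraries, an adjusted p under 0.01, columns of 1 spelling, leaving out LOC118568312 (6.10 to 14.1% of counts) and leaving out each library. Sequences come from RefSeq (GRCm38.p6) and GENCODE M21, where 63 of 65 names matched; H2bc24 and H1f9 are named only.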

Additional observations from a re-analysis of the deposited data

Results flagged for a closer look

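The difference between 100 and 1 µg/ml C1q varied between 2, 24, 48 and 72 h for 4 histone genes by edgeR's test of that variation over all genes. For H2bc4 (adjusted p = 8.98e-06) the log2 difference was 0.10 at 2 h, -1.41 at 24 h, -0.79 at 48 h and -0.63 at 72 h, and the call held in 24 of 24 fits that left out 1 library. For H2ac18 (adjusted p = 0.0127) it was 0.23, -0.86, -0.88 and -0.86, and the call held in 21 of 24 such fits. For H2bc6 (adjusted p = 0.0344) it was -0.10, -1.32, -0.52 and -1.06, and for H2bc23 (adjusted p = 0.0355) 0.04, -1.46, -0.77 and -0.45, with 17 of 24 fits each. The calls of H2bc6 and H2bc23 were lost with the 24 h libraries restricted to the less common column spelling.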

How the results depend on the processing

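Depth limits the smaller genes, many of which had fewer than 10 counts a library. RLE scaling and leaving out LOC118568312 lost none of the 147 calls on single genes. With columns of the common spelling only, 9 genes rose and 9 fell at 24 h against untreated cells, 1 fell from 2 to 24 h, 0 rose and 11 fell from 24 to 48 h, 2 were lower at 100 than at 1 µg/ml at 48 h, and H2bc4 turned from 24 to 48 h (-0.48); the dose tests at 24 h and across times could not be fitted, as groups had no such column. With the 24 h libraries restricted to the less common spelling (added after seeing the data), 1 fell from 24 to 48 h, 3 were lower at 100 µg/ml at 24 h, 2 varied with dose across times, and H2ac23 turned at 24 h (0.30). At an adjusted p under 0.01 these counts were 9 (rose, 2 to 24 h), 0 (rose, 24 to 48 h), 8 (lower at 100 µg/ml, 24 h) and 1 (across times). The rise from 24 to 48 h was 0 genes without the filter and 0 with DESeq2, and 9 genes were lower at 100 µg/ml at 24 h in the fit of those libraries alone. With columns of the common spelling only, 24 h is held by 1 µg/ml alone, so spelling and dose cannot be told apart there. The cause was not tested. Leaving out 1 library gave 3 to 6 genes that rose at 48 h against untreated cells, 0 to 1 that rose from 24 to 48 h and 0 to 1 that fell from 48 to 72 h; the libraries that move a count are named beside it above. Between doses it gave 0 to 1 higher at 2 h, 8 to 20 lower at 24 h, 0 to 1 higher and 3 to 7 lower at 48 h, and 2 to 5 across times. No paired analysis was possible because the labels give each library its own serial number, so that no replicate number is shared between groups.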
